A study of Mus musculus with 8 samples.

Results

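Interleukin-1 (IL-1) family and inflammasome genes are described here in the uterine epithelium of mice with a conditional deletion of Smad2 and Smad3, the genes of the transducers of TGF-beta and activin signals. The set holds 10 genes of 24346 gene symbols in the deposited tables, chosen by symbol from a fixed list: the ligand genes Il1a, Il1b, Il18 and Il33, the antagonist gene Il1rn, the receptor genes Il1r1, Il1r2 and Il1rap, and the inflammasome genes Casp1 and Nlrp3. RNA was sequenced from 3 control libraries and 5 Smad2/3 cKO libraries. The cKO mice were Smad2flox/flox;Smad3flox/flox;Pgr-cre, in which a Cre recombinase knocked into the progesterone receptor locus deletes the floxed exons. The mice were on a mixed C57BL/6/129S6/SvEv background. The controls are labelled by that word alone, with their alleles, the age of the mice and the stage of the cycle not given in the sources used here. Per the labels, Pgr-cre acts after birth in the uterus and also in the ovary, oviduct, mammary gland and pituitary gland, so the deletion is not limited to the epithelium that was sequenced. Whether every library stems from a separate animal is not stated, so a p-value covers the spread among these libraries only, which may be technical.

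IL-1 alpha and IL-1 beta are inflammatory cytokines that bind the same receptor, IL1R1, which recruits the accessory protein IL1RAP and signals through MYD88 and IRAK kinases to NF-kB. The system is held in check by a receptor antagonist (encoded by Il1rn) and by IL1R2, a decoy receptor that binds IL-1 without signalling. IL-1 beta and IL-18 are made as inactive precursors and are cut by caspase-1, which is activated on inflammasomes, complexes built around sensors such as NLRP3. IL-1 alpha and IL-33 also act as alarmins that damaged epithelium releases.

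Promoters are shown because the results turn on Il1r1, whose 2 transcripts start at different sites, and on Il1a and Il1b, neighbours on chromosome 2 that moved the same way. Each sequence is from RefSeq on GRCm38.p6, runs 5′ to 3′ on the strand of the gene and covers 250 bases before the start and 50 after it. Capitals mark matches on either strand to the NF-kB site (kappaB consensus), to the AP-1 site TGANTCA or to the SMAD box CAGAC.
Il1r1, upstream start, chr1:40224830-40225129, plus strand: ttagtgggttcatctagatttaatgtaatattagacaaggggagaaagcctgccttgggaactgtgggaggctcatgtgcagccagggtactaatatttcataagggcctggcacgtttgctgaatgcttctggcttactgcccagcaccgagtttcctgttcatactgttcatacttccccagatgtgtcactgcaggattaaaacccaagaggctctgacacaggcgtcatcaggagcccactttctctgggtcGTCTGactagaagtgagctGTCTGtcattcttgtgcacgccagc
Il1r1, downstream start, chr1:40266336-40266635, plus strand: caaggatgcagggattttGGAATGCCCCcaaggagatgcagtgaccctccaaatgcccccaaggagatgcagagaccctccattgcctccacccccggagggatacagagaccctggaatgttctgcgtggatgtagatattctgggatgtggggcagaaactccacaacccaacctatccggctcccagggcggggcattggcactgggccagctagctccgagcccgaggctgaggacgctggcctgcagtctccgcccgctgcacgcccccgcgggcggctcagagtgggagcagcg
Il1a, chr2:129309923-129310222, minus strand: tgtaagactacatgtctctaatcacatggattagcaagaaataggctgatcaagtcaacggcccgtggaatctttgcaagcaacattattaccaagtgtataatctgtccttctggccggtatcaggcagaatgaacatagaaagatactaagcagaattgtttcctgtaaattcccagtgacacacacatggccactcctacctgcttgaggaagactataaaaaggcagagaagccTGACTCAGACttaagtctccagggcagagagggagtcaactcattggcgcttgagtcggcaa
Il1b, chr2:129371090-129371389, minus strand: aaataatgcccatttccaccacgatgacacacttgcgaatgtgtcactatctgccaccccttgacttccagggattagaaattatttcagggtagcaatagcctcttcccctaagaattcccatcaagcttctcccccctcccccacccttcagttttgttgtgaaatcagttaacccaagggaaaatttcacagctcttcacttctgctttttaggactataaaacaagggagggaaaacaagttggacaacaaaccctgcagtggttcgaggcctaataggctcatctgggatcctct
The upstream Il1r1 window held 2 CAGAC matches, both after the start, and the downstream window held 1 kappaB match, 232 to 223 bases before the start. In Il1a a TGANTCA match lay 12 to 6 bases before the start and overlapped 1 CAGAC match. The Il1b window held none of the 3 motifs. Among 32851 mouse promoter windows of the same length, 4.51% held a kappaB match, 7.81% a TGANTCA match and 49.6% a CAGAC match. These matches describe letters only.

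Values below are FPKM (fragment numbers normalised to transcript length and library size), summed per gene and put on 1 scale across libraries. They are corrected for length, so levels of different genes can be compared. Differences were tested with limma over 11315 genes, and a gene was called at an adjusted p below 0.05. Depth per library was estimated at 42900000 to 53900000 fragments. Smad2 was 5.69, 6.35 and 6.18 in the controls and 3.03 to 4.02 in the cKO libraries (limma adjusted p = 0.0055), while Smad3 read 25.6 to 31.5 against 20.6 to 42.6 (limma adjusted p = 0.837). A gene-level FPKM also counts exons outside the deleted part, for Smad2 as for Smad3, so neither value measures the deletion itself. Why Smad3 was not lower was not tested. Epithelial markers other than Foxa2 were at 27.1 or more in every library, with Epcam between 378 and 523. Foxa2 was 0.960, 0.966 and 0.442 in the controls and 4.59 to 6.26 in cKO (limma adjusted p = 0.000307). It entered the test only through cKO and was the 1 called gene of 14 epithelial markers, where 14.3% of all tested genes were called. By their titles, cKO 1 and cKO 2 carry numbers from a separate run of numbers, and the other 6 libraries form what is called here the larger title series.

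In all, 3 of the 10 members were higher and 1 lower in cKO, against 7.27% and 6.98% of all tested genes called in those directions. Il1a, Il1b and the decoy receptor gene Il1r2 rose, and the signalling receptor gene Il1r1 fell. All 10 members passed the filter on low values. Their median log2 fold change was 0.46, against -0.0050 over all tested genes. In 5 members the groups did not overlap, as in 24.6% of tested genes. For 4 of them every cKO library lay above every control, which holds for 11.7% of tested genes, and for 1 every cKO library lay below (12.9% of tested genes). The call of Il1r1 held in 18 of 18 alternative settings, whereas those of Il1a, Il1b and Il1r2 were lost in 9, 8 and 11 of 18. No member was called higher among the 6 libraries of the larger title series alone, nor with the title series as a term. Leaving out control 1, control 2 or cKO 1 ended the calls of Il1a, Il1b and Il1r2 alike. Leaving out control 3 also ended those of Il1a and Il1b, cKO 2 or cKO 5 those of Il1a and Il1r2, and cKO 3 that of Il1r2. Over the 18 alternatives the limma adjusted p reached 0.177 for Il1a, 0.11 for Il1b and 0.182 for Il1r2, and for Il1r1 it stayed at 0.031 or less.

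**Figure D1:**
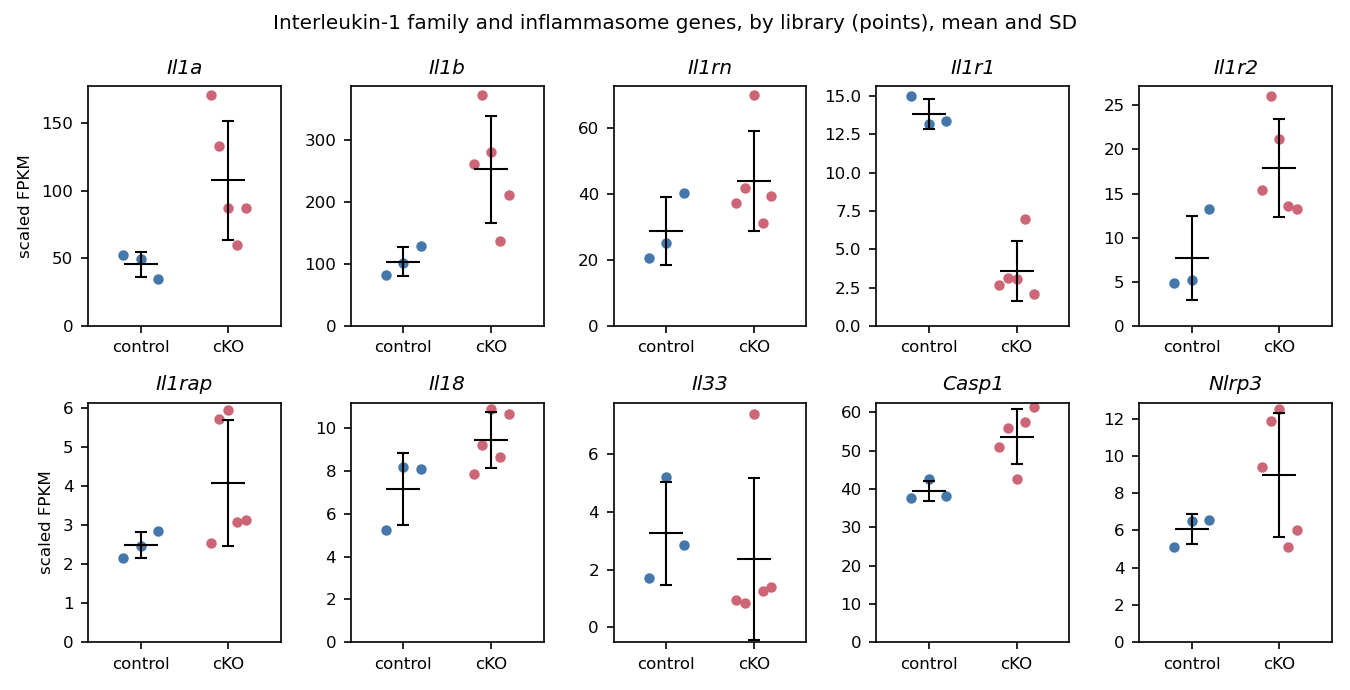
Scaled FPKM (vertical axis, linear) of the 10 genes in each library (points), with the mean and SD of the 3 control and 5 cKO libraries (horizontal line and bar). Il1r1 lies between 13.2 and 15.0 in the controls and at 6.99 or less in cKO, and Il1a and Il1b are higher in every cKO library than in any control.

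By level, Il1b was the most abundant member in both groups and Il1a, Casp1 and Il1rn followed in that order. In the controls the ranges of Il1a and Casp1 overlapped, as did those of Casp1 and Il1rn. In cKO the ranges overlapped at each of these steps, Il1b with Il1a included, and in cKO 3 Il1rn (70.2) exceeded Casp1 (42.6). Il1r1 was the fifth gene in the controls, above Il1r2, with ranges that overlapped. In cKO Il1r2 was the fifth gene and stood apart from its neighbours Il1rn and Il18, while Il1r1 was second to last. There its range overlapped those of its neighbours in the order, Il1rap and Il33.

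Among the ligands, Il1b (chromosome 2, 129364580 to 129371120) had scaled FPKM of 81.4, 102 and 128 in the controls and 260.1, 372, 280.2, 137 and 211 in cKO, in the order of the libraries from cKO 1. Each cKO library lay above the highest control, cKO 4 by the least. The means were 104 ± 23.3 (SD, n = 3) and 252 ± 86.8 (SD, n = 5), which is 2.43-fold by group means, and limma gave a log2 fold change of 1.22 ± 0.30 (standard error) at an adjusted p of 0.0288, with p = 0.0357 by exact permutation. Il1a (chromosome 2, 129299610 to 129309972) lies 54.6 kb from Il1b. Its values were 52.2, 49.2 and 34.7 in the controls and 170.5, 133, 86.8, 59.4 and 87.3 in cKO. Again cKO 4 was the lowest cKO library, and cKO 1 and cKO 2 were the highest. Il1a rose 2.37-fold by group means, and limma gave a log2 fold change of 1.15 ± 0.32 at an adjusted p of 0.0436. Exact permutation gave p = 0.0536, where the 56 splits can reach 0.0179. Among the 6 libraries of the larger title series, the log2 fold change was 0.98 for Il1b (limma adjusted p = 0.0782) and 0.77 for Il1a (limma adjusted p = 0.0674). A noncoding gene, Il1bos, overlaps Il1b, but its mean was 0.704.

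The other ligands did not pass. Il18 (chromosome 9, 50565368 to 50581837) was 5.23, 8.16 and 8.06 in the controls and 7.83, 9.21, 10.9, 8.66 and 10.6 in cKO. The groups overlapped in cKO 1, and the log2 fold change was 0.37 ± 0.16 (limma adjusted p = 0.147). Il33 (chromosome 19, 29925114 to 29960715) was 1.72, 5.22 and 2.86 in the controls and 0.944, 0.835, 7.41, 1.25 and 1.40 in cKO. Of the cKO libraries, cKO 3 had the highest Il33 value of all 8 and the other 4 lay below every control. With all libraries the log2 fold change was -0.54 ± 0.50 (limma adjusted p = 0.485), and without cKO 3 it was -0.94 (limma adjusted p = 0.0461). Il1rl1, the gene of the IL-33 receptor, was at 0.0590 or less in every library, too low to be tested.

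The antagonist gene Il1rn (chromosome 2, 24336860 to 24351491) did not pass either. Its scaled FPKM was 20.7, 25.2 and 40.4 in the controls and 37.4, 41.8, 70.2, 31.1 and 39.3 in cKO, so that control 3 lay within the cKO range. The log2 fold change was 0.59 ± 0.28 (limma adjusted p = 0.181). Most of the Il1rn signal was assigned to the transcript NM_001039701, 57.1% to 75.1% in the controls and 53.8% to 72.9% in cKO, and most of the rest to NM_031167, which starts upstream. The ratio of Il1rn to the sum of Il1a and Il1b, which does not depend on scaling between libraries, was 0.155, 0.167 and 0.249 in the controls. It was 0.0869, 0.0827, 0.191, 0.159 and 0.132 in cKO 1 to 5. The groups overlapped (means 0.190 ± 0.0509 and 0.130 ± 0.0466; exact permutation p = 0.179 on log2 values, two-sided). The log2 difference was -0.59 with all libraries and -0.23 within the larger title series.

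Of the members, the receptor gene Il1r1 had the log2 fold change farthest from 0. It (chromosome 1, 40225080 to 40316177) had scaled FPKM of 15.0, 13.2 and 13.4 in the controls and 2.64, 3.15, 3.06, 6.99 and 2.09 in cKO. All cKO libraries lay below all controls, and cKO 4 was the highest of them. The mean fell from 13.8 ± 0.998 (SD, n = 3) to 3.59 ± 1.95 (SD, n = 5), 3.86-fold, and limma gave a log2 fold change of -1.78 ± 0.27 at an adjusted p of 0.00474. By exact permutation p was 0.0179, which is the smallest value the 56 splits can give. Within the larger title series it was -1.67 (limma adjusted p = 0.031).

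Both Il1r1 transcripts were lower in cKO, those whose promoters are printed above. NM_008362, from the upstream start, had a scaled FPKM of 10.9, 7.16 and 7.78 in the controls and 2.64, 2.44, 0.887, 6.03 and 1.51 in cKO. NM_001123382, from the downstream start, was 4.12, 6.04 and 5.57 in the controls and 0, 0.705, 2.17, 0.965 and 0.579 in cKO, the first of these listed at 0. For neither transcript did the groups overlap. The deposited 95% interval of NM_008362 was 6.66 to 7.65 in control 2, the lowest control, and 5.61 to 6.44 in cKO 4, the highest cKO library, so these 2 libraries lay close. In cKO 3 the downstream transcript took 71% of the Il1r1 signal, where it took 27.5% to 45.7% in the controls and 27.7% or less in the other cKO libraries. Cufflinks divides fragments of shared exons between transcripts by a model, and the transcripts were not tested separately.

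Il1r2 (chromosome 1, 40084768 to 40125226), the decoy receptor gene 99.9 kb from Il1r1, moved the other way. It was 4.81, 5.18 and 13.2 in the controls and 15.4, 26.0, 21.2, 13.6 and 13.2 in cKO. The groups did not overlap, but control 3 (13.234) and cKO 5 (13.238) were nearly equal. Its log2 fold change by limma was 1.19 ± 0.33 at an adjusted p of 0.0432 (p = 0.0179 by exact permutation), and 1.07 within the larger title series (limma adjusted p = 0.116). The accessory receptor gene Il1rap (chromosome 16, 26581705 to 26725147) was low, at 2.17, 2.47 and 2.85 in the controls and 2.54, 5.72, 5.96, 3.10 and 3.13 in cKO (log2 fold change 0.49 ± 0.24, limma adjusted p = 0.20). The values of cKO 2 and cKO 3 stood above the rest.

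The decoy gene thus read below the signalling receptor gene in each control and above it in each cKO library. Their ratio, Il1r2 over Il1r1, was 0.321, 0.392 and 0.991 in the controls, and in cKO it was 5.85, 8.27, 6.94, 1.94 and 6.34. The groups did not overlap, and the mean ratio was 0.568 ± 0.368 in control and 5.87 ± 2.37 in cKO, 10.3-fold higher (log2 difference 3.40; exact permutation p = 0.0179). Among the larger title series alone the log2 difference was 3.14, and there 3 against 3 libraries cannot reach a p below 0.10. The ratio adds no test that is independent of its 2 genes.

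**Figure D2:**
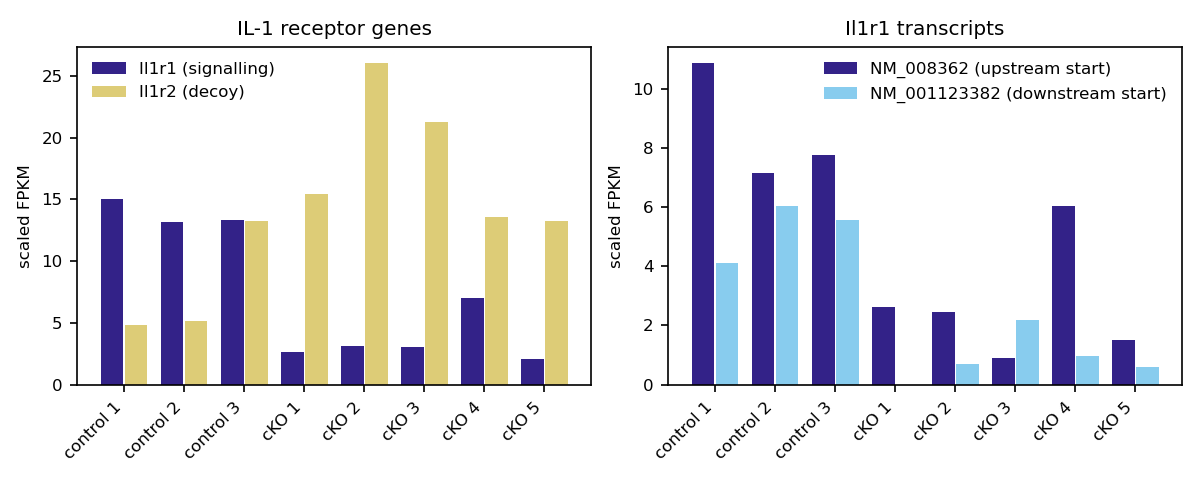
Scaled FPKM (vertical axes, linear from 0) in each of the 8 libraries (horizontal axes), for Il1r1 and Il1r2 on the left and for the 2 Il1r1 transcripts on the right. In the controls Il1r1 is above Il1r2, narrowly in control 3, and in every cKO library it is below.

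Neither of the inflammasome genes among the members was called. Casp1 (chromosome 9, 5298517 to 5307281) was 37.6, 42.5 and 38.2 in the controls and 51.1, 55.9, 42.6, 57.5 and 61.3 in cKO. Its groups did not overlap, with control 2 and cKO 3 nearly equal, but it missed the threshold at a log2 fold change of 0.43 ± 0.13 with an adjusted p of 0.0545 by limma (p = 0.0357 by exact permutation). It passed without cKO 3 (limma adjusted p = 0.0152) and with array weights (limma adjusted p = 0.0179). Nlrp3 (chromosome 11, 59542686 to 59566956) was 5.14, 6.50 and 6.54 in the controls and 9.42, 11.9, 12.5, 5.09 and 6.01 in cKO. Here cKO 1, 2 and 3 lay above all controls, cKO 5 lay within their range and cKO 4 just below it, and the log2 fold change was 0.43 ± 0.27 (limma adjusted p = 0.301).

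Other genes of the pathway were counted in 5 lists, of which 64 genes were tested. A total of 10 were higher and 7 lower, 26.6% of those tested, where 14.3% of all tested genes were called in either direction. These figures include Nlrp6, called higher, and Il36rn, not called. Both were below a scaled FPKM of 1 in every control and entered the test only through cKO. The lists were drawn up with earlier results of these data known.

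Of the sensor and pyroptosis genes, 2 of 16 tested were higher and 4 lower, against 7.27% and 6.98% of all tested genes. The median log2 fold change of the 16 was -0.0146. The lower genes were Naip1 and Nlrc4, which form the inflammasome that senses the needle of bacterial type III secretion systems, Casp8, the initiator caspase of death receptors, and P2rx7, the ATP-gated channel that triggers NLRP3. Naip1 was 44.6, 41.6 and 40.7 in the controls and 17.2, 18.0, 21.9, 17.9 and 15.0 in cKO (log2 fold change -1.20 ± 0.12, limma adjusted p = 0.000658), although near-identical Naip copies make its fragments hard to assign. Nlrc4 was 7.37, 10.9 and 8.51 against 2.49, 3.55, 4.27, 3.29 and 4.50. Casp8 fell from 43.8 ± 4.08 to 21.6 ± 2.82 and P2rx7 from 4.72 ± 0.495 to 1.84 ± 0.196 (limma adjusted p = 0.00205 and 0.00105). For these 4 genes the groups did not overlap, and each call held in every alternative that tested the gene. The higher genes were Panx1, the gene of an ATP-release channel (4.62 ± 0.334 to 6.85 ± 0.910), and the sensor gene Nlrp6 (0.592 ± 0.355 to 1.80 ± 0.62), whose calls were lost in 5 of 18 and 6 of 17 alternatives. Nlrp6 was below a scaled FPKM of 1 in all 3 controls and above it in all 5 cKO libraries, so it entered the test only through the group where it was high. The adaptor gene Pycard, the pore gene Gsdmd and the caspase-11 gene Casp4 did not pass, at 44.9 ± 14.6, 42.2 ± 7.41 and 55.6 ± 13.5 in cKO against 50.5 ± 4.05, 34.4 ± 7.60 and 60.3 ± 2.73 in control.

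Other IL-1 family ligands include the IL-36 cytokines, epithelial activators whose receptor is encoded by Il1rl2. Of 4 tested, 2 were higher and 0 lower, against 7.27% and 6.98% of all tested genes. The median log2 fold change of the 4 was 0.52. Il36a, Il1f6 in the deposited tables (chromosome 2, 24215417 to 24225701), was more abundant than any member. Its scaled FPKM was 431, 322 and 313 in the controls and 1084, 968, 492, 964 and 859.9 in cKO, with no overlap and cKO 3 lowest. The log2 fold change was 1.26 ± 0.26 (limma adjusted p = 0.0163), and 1.08 within the larger title series (limma adjusted p = 0.0614). Leaving out control 2 or control 3 also ended the call. Il36g (Il1f9) rose from 50.4 ± 0.786 to 84.3 ± 17.8 (limma adjusted p = 0.0267, lost in 5 of 18 alternatives). Il36b (Il1f8) did not pass, at 45.1, 16.7 and 44.5 in the controls and 0.549, 19.7, 19.4, 19.0 and 23.9 in cKO, where cKO 1 was far below the rest. The antagonist gene Il36rn (Il1f5) was at 0.571 to 0.635 in the controls and 0.711 to 1.31 in cKO, and did not pass (limma adjusted p = 0.151). It entered the test, and so the median above, only through cKO 1, 2 and 4 (1.17, 1.31 and 1.12).

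Of the other receptors and binding proteins, 0 of 5 tested were higher and 2 lower, against 7.27% and 6.98% of all tested genes. The median log2 fold change of the 5 was -0.40. Il1rl2 fell from 5.79 ± 0.913 to 2.55 ± 0.942 (log2 fold change -0.97 ± 0.21, limma adjusted p = 0.0189), and its values were 6.79, 5.58 and 5.01 against 1.60, 1.90, 2.85, 4.01 and 2.41. Without control 1, 2 or 3 its call was lost. The IL-18 receptor accessory gene Il18rap fell from 3.83 ± 0.206 to 2.32 ± 0.479 (limma adjusted p = 0.0292, lost in 7 of 17 alternatives). Its partner gene Il18r1 was 5.91 ± 0.917 in control and 4.27 ± 1.02 in cKO and did not pass. Il1r2, Il1r1, Il1rl2, Il1rl1, Il18r1 and Il18rap lie in this order in 1 cluster on chromosome 1 (40084768 to 40551705). Of its 5 tested genes, Il1r2 rose, Il1r1, Il1rl2 and Il18rap fell, and Il18r1 was not called. Il1rl2 begins 8.45 kb past the end of Il1r1, and like Il1r1 it was highest in cKO 4 among the cKO libraries.

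**Figure D3:**
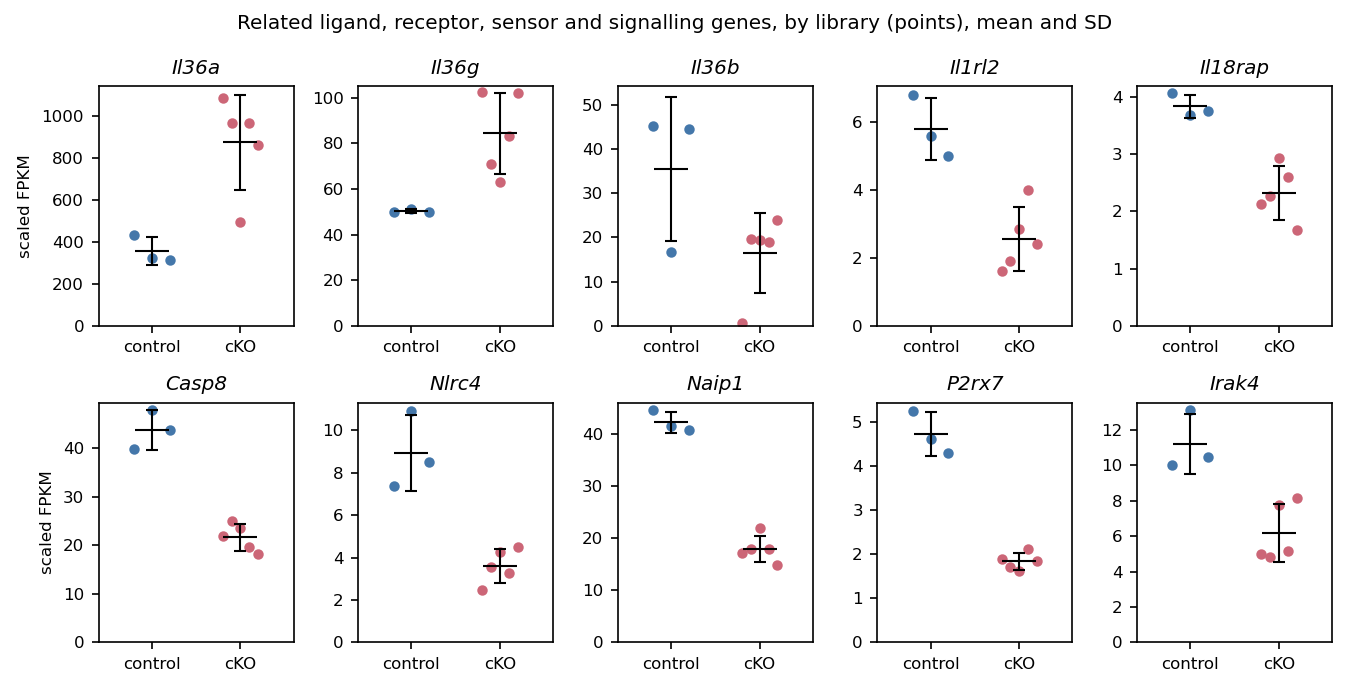
Scaled FPKM (vertical axis, linear) of 10 related genes in each library (points), with mean and SD of the 3 control and 5 cKO libraries. Il36a and Il36g are higher in every cKO library, Il36b overlaps between the groups, and the other 7 genes are lower in every cKO library.

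In the signalling list, 2 of 16 tested genes were higher and 1 lower, against 7.27% and 6.98% of all tested genes. The median log2 fold change of the 16 was 0.0838. Irak4, the kinase first recruited by MYD88, fell from 11.2 ± 1.68 to 6.18 ± 1.65 (log2 fold change -0.79 ± 0.19, limma adjusted p = 0.0261). Irak3, which encodes an inhibitory relative of that kinase, rose from 4.13 ± 1.87 to 10.5 ± 3.93 (log2 fold change 1.16 ± 0.30, limma adjusted p = 0.0335), with values of 3.79, 2.46 and 6.15 against 8.28, 11.8, 7.42, 8.06 and 16.8. The ubiquitin ligase gene Peli1 rose from 7.42 ± 0.748 to 10.9 ± 1.59 (limma adjusted p = 0.0364). Calls of Irak4, Irak3 and Peli1 were lost in 7, 7 and 11 of 18 alternatives. Myd88 itself was 23.9 ± 0.563 in control and 28.5 ± 2.00 in cKO and did not pass (limma adjusted p = 0.0933).

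Of 23 tested genes that IL-1 and NF-kB are known to induce, 4 were higher and 0 lower (median log2 fold change 0.43). They were the chemokine genes Ccl20, Cxcl5 and Cxcl2 and the prostaglandin synthase gene Ptgs2. Ccl20 was 3.51, 6.33 and 6.87 in the controls and 316, 165, 117, 39.0 and 94.0 in cKO. Ptgs2 was 115, 146 and 117 in the controls and 373, 341, 196, 166 and 241 in cKO (log2 fold change 0.998 ± 0.269, limma adjusted p = 0.0405). Cxcl2 was 37.3, 56.2 and 53.7 against 181, 174, 120.3, 56.2 and 105 (limma adjusted p = 0.0475), so that cKO 4 lay at the level of control 2. Ccl20 kept its call in 18 of 18 alternatives, while Cxcl2, Ptgs2 and Cxcl5 lost theirs in 13, 9 and 3 of them. For Ccl20, Cxcl2 and Ptgs2 cKO 1 was the highest library and cKO 4 the lowest cKO library, as for Il1a. Of the 23 genes, 4 had every cKO library above every control and 1, Lcn2, had every one below (11.7% and 12.9% of all tested genes). Lcn2, the most abundant of them, was 16933 to 18024 in the controls and 7608.5 to 14100 in cKO. It did not pass (log2 fold change -0.74, limma adjusted p = 0.142).

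**Figure D4:**
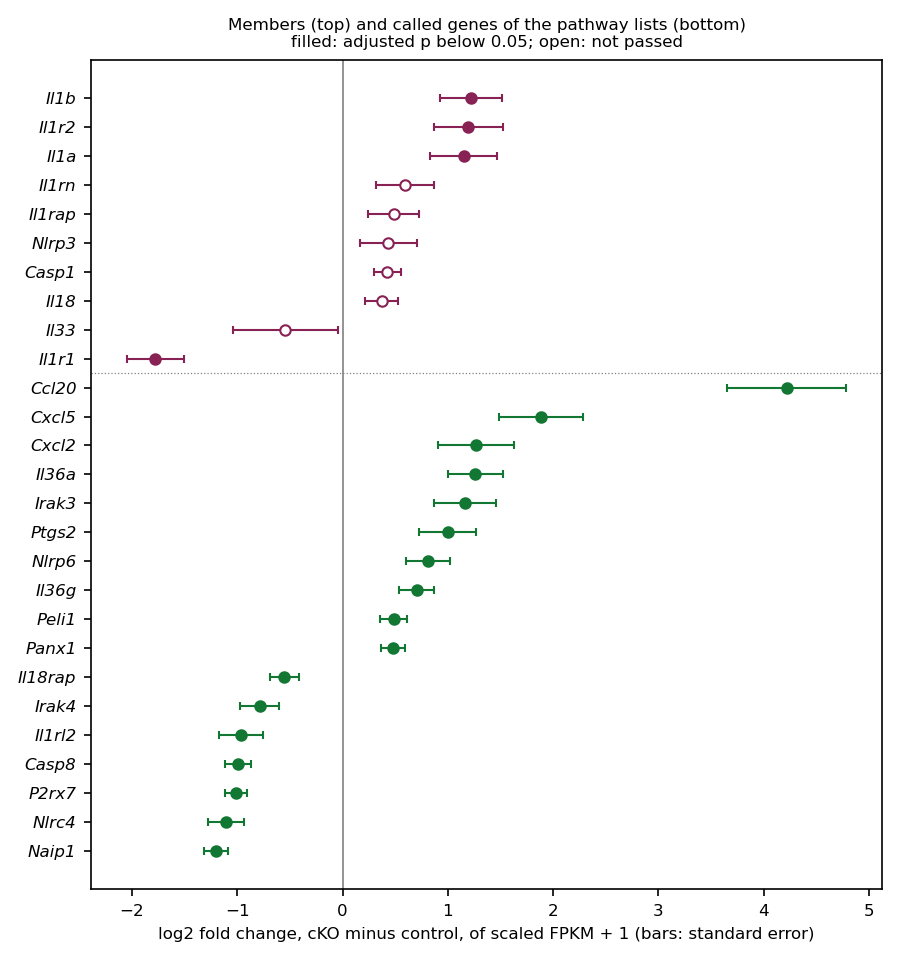
Log2 fold change, cKO minus control, of scaled FPKM + 1 (horizontal axis) with its standard error (bars) for the 10 members and the 17 called genes of the pathway lists. Filled points passed an adjusted p of 0.05. Il1r1 has the lowest value of all genes shown (-1.78) and Ccl20 the highest (4.22).

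Several members are also expressed by leukocytes, and neutrophil markers were higher in most cKO libraries. Of 8 tested neutrophil markers 1 was called higher, Retnlg, and 0 lower, against 7.27% and 6.98% of all tested genes. The median log2 fold change of the 8 was 1.33. Among them 6 had an unadjusted p below 0.05, as had 31.5% of all tested genes. Of these 6, Mmp8 was at 0.224 or less in the controls and entered the test only through cKO 2, 3 and 5 (1.43, 4.73 and 2.29). Retnlg was 0.709, 0.752 and 1.57 in the controls and 10.2, 17.1, 76.5, 2.39 and 32.8 in cKO. Among the controls only control 3 reached the filter level, so Retnlg too was tested because of its cKO values. The summed level of 13 neutrophil markers ranged from 212 to 411 in the controls and from 301 to 1996 in cKO. Without S100a8 and S100a9, which some epithelia also express, it was 12.0, 13.4 and 34.5 in the controls and 40.9, 95.7, 147, 25.2 and 72.0 in cKO. Control 3 was thus the highest control and cKO 4 the lowest cKO library, an order also seen in Il1b, Il1rn and Nlrp3. For Nlrp3 control 2 and control 3 were nearly equal. Il1r2 and Il1rap shared the order for control 3 only. In Il1a cKO 4 was the lowest cKO library too, but control 3 was the lowest control. Il1r1, Il18, Il33 and Casp1 shared neither. Among the other neutrophil markers, Cxcr2 was 2.40 to 7.52 in the controls and 7.23 to 21.9 in cKO. Csf3r was 4.59 to 13.5 against 7.81 to 24.7, Mmp9 0.934 to 3.72 against 1.30 to 7.65 and Stfa2l1 2.60 to 7.60 against 2.96 to 24.7. For each of these the groups overlapped and the gene was not called. Camp, Ngp and Elane stayed below 1 in every library. The part of neutrophil RNA in the values of Il1b, Il1r2, Il1rn and Nlrp3 was not tested. In bulk RNA, more cells of a type and more RNA per cell cannot be told apart.

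Of all tested genes, 7.27% were called higher and 6.98% lower, and 31.5% had an unadjusted p below 0.05. Of 9 pan-leukocyte markers 0 were called higher and 1 lower, Laptm5, and 7 had an unadjusted p below 0.05 (median log2 fold change 1.07). The other 6 of these had higher means in cKO, among them Ptprc, which encodes CD45, at 1.55 to 2.83 in the controls and 3.03 to 10.2 in cKO (limma adjusted p = 0.0615). The markers had summed levels of 65.3 to 108 in the controls and 76.8 to 202 in cKO. Macrophage and monocyte markers were called in neither direction (0 of 8 tested, 1 with an unadjusted p below 0.05). Their sum was 363 to 581 in control and 481 to 738 in cKO, most of it Cd14 and Cd68. Without these it was 27.0 to 41.8 and 22.8 to 70.7, and Adgre1, Fcgr1, Ccr2, Mrc1 and Cx3cr1 were below 1 in every library. T and NK cell markers summed to 1.79 to 2.46 in the controls and 1.99 to 10.6 in cKO. Most of that in cKO 1 and cKO 2 was Gzma (4.16 and 5.60) and Nkg7 (1.56 and 2.45), while Cd3d, Cd3e, Cd3g, Cd4 and Cd8a were below 1 throughout. Also below 1 throughout were 6 of 7 dendritic cell markers and 5 of 6 mast cell markers. The dendritic cell marker left, Itgax, was at 1.62 or less. Hdc, the mast cell marker left, was 55.9 to 113 in the controls and 67.8 to 186 in cKO. It was not called (limma adjusted p = 0.192). Il1r1 is also expressed by stroma. Stromal fibroblast markers summed to 117 to 265 in the controls and 58.2 to 253 in cKO, where cKO 3 was highest. Of 8 tested, 1 was called lower (Nr2f2) and 0 higher, with a median log2 fold change of -0.78. The part of stromal RNA in the Il1r1 values was not tested. Smooth muscle markers summed to 323 in control 1 and to 103 or less in the other libraries. Of 6 tested, 0 were called, with a median log2 fold change of -1.05. Endothelial markers summed to 6.30 or less in all libraries.

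**Figure D5:**
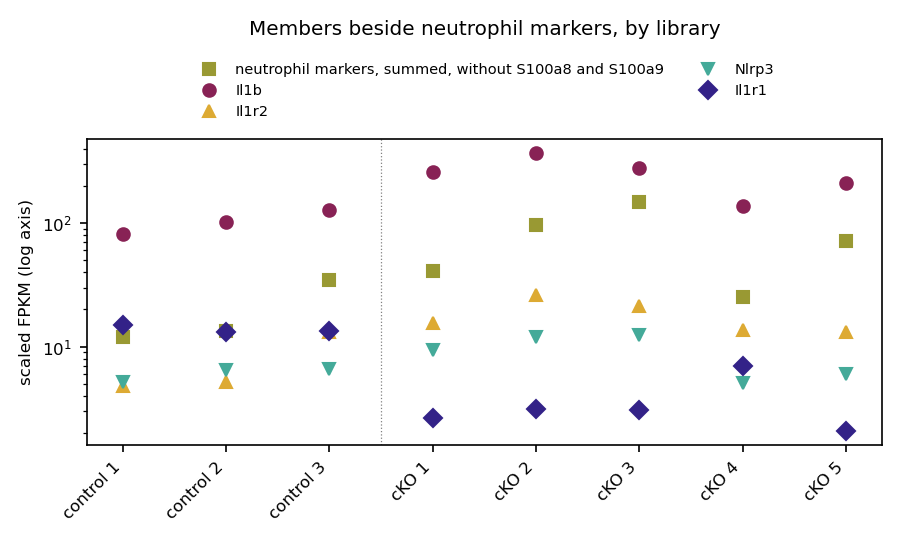
Scaled FPKM (vertical axis, log scale) of Il1b, Il1r2, Nlrp3 and Il1r1 and of the summed neutrophil markers without S100a8 and S100a9, in each library (horizontal axis). The marker sum is lowest in controls 1 and 2 (12.0 and 13.4) and highest in cKO 3 (147), where Retnlg alone is 76.5. Among the cKO libraries Il1r1 is highest (6.99) in cKO 4, where the sum is lowest (25.2).

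Within the groups, members differed in which genes they followed. Likeness was measured as Pearson's r between deviations from the group means over the 8 libraries. Depth and the marker sums above differed between the libraries, and their part in r was not tested. The r values are given as a description. Il1b deviated most like Nlrp3 among the members (r = 0.89) and less like Il1a (r = 0.513), and Il1r1 deviated against Il1b (r = -0.619). Outside the members, the genes closest to Il1r2 were Ccr1, Slfn4 and Ncf4 (r = 0.984, 0.962 and 0.959), and those closest to Il1a were Phlda1, Nelfe and Trip10 (0.984, 0.978 and 0.977). Il1b was followed most closely by Chd7, Ltbp2 and Atxn7l2 (0.986, 0.981 and 0.970) and Il1r1 by Nek1, Pigg and Ralgapa1 (0.965, 0.958 and 0.955). They are the highest values among 11315 tested genes over only 8 libraries, and no test is attached to them.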

How the data were processed

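Reads were processed with TopHat, Cufflinks and bcl2fastq 1.8.3 on mm10, per the submitters' processing notes. The deposited FPKM values were computed by the authors per RefSeq transcript in each library separately, with a 95% interval, per the file headers. A deposited column of coverage signal was left aside. Use of strand is not given in the sources used here.

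FPKM was summed per symbol (24346 symbols), 15 genes with a status other than OK were left out, and each library was divided by its median ratio to the genes' geometric means (factors 0.924 to 1.06). A gene was tested where 3 or more libraries reached a scaled FPKM of 1. The two-sided test was limma 3.58.1 (R 4.3.3), with the variance trend, of log2(scaled FPKM + 1), and p was adjusted over all tested genes by Benjamini-Hochberg. This scale understates the change of low genes. Exact permutation tests used all 56 splits, two-sided. The widths of the deposited 95% intervals gave the depth estimate. The fit was tested on simulated data. Coordinates are those of the files on mm10, written 1-based. Of 188 list genes 185 were matched, 5 by accession under an older symbol.

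The members and lists were chosen with earlier results of these data known. All members are named, with the called genes of each pathway list, Smad2 and Smad3, marker lists by counts and sums, and for likeness the 3 closest genes of 4 members. Pycard, Gsdmd, Casp4, Myd88, Il18r1, Il36b, Il36rn, Il1rl1, Lcn2 and some single markers, Foxa2 among them, were named after their values were seen. Alternatives changed scaling, pseudocount, filter, variance model, weights and libraries.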

Additional observations from a re-analysis of the deposited data

Results flagged for a closer look

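Of 29 checks for 1 library far from the other 4 of the cKO group, 3 found such a library, where chance gives about 1 in 20. Il1r1 was 6.99 scaled FPKM in cKO 4 and 2.09 to 3.15 in the others. Il1rn was 70.2 in cKO 3 and 31.1 to 41.8 in the others. Il33 was 7.41 in cKO 3 and 0.835 to 1.40 in the others. In cKO 3 stromal fibroblast markers (253) and neutrophil markers without S100a8 and S100a9 (147) were also the highest of the cKO libraries. Of that neutrophil sum 76.5 was Retnlg alone. Of its other tested markers, Mmp8 and Mmp9 were highest in cKO 3 and Csf3r, Cxcr2 and Stfa2l1 in cKO 2. The part of stromal or neutrophil RNA in these outlying values was not tested. Without cKO 4 the log2 fold change of Il1r1 was -2.00 (limma adjusted p = 0.000211), and without cKO 3 that of Il1rn was 0.41 (limma adjusted p = 0.211).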

How the results depend on the processing

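The labels give no replicate numbers and pair no control library with a cKO library, so no paired analysis was made. No member and none of the 17 called pathway genes changed direction in any alternative. The calls of Il1r1, Casp8, Naip1, Nlrc4, P2rx7 and Ccl20 were kept wherever the gene was tested. Members called higher numbered 3, and 0 without a filter, 0 among the larger title series and 0 with the title series as a term. Without 1 library they numbered 0 to 3 (0 without control 1, control 2 or cKO 1, and 1 without control 3, cKO 2 or cKO 5), and members called lower 1 to 2, Il33 being added without cKO 3. Pathway genes called higher numbered 10, and 6 without a filter, 18 with array weights, 3 among the larger title series, 6 with the title series as a term and 1 to 13 without 1 library. Pathway genes called lower numbered 7, and 4 to 8 without 1 library. All called genes numbered 823 higher and 790 lower. They were 512 and 1616 with TPM, where the median log2 fold change was -0.20 and 24.1% of calls were higher in place of 51%, 1793 and 1733 with array weights, and 238 to 928 and 176 to 887 without 1 library. The log2 difference of the decoy ratio was 3.14 among the larger title series (exact permutation p = 0.1, the smallest that 3 against 3 allow) and 3.08 to 3.90 without 1 library. That of the antagonist ratio was -0.75 to -0.38. The causes were not tested. By the deposited 95% intervals, depth left control 1 at 79.1 to 83.7 for Il1b and at 4.48 to 5.98 for the short transcript of Il18.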
